A study of Mus musculus with 8 samples.

Results

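The 10 genes described here encode integrin subunits that fibroblasts are known to use, those of the beta1 and alphaV classes: the alpha subunits *Itga1*, *Itga3*, *Itga4*, *Itga5*, *Itga8*, *Itga11* and *Itgav*, and the beta subunits *Itgb1*, *Itgb3* and *Itgb5*. They were taken by symbol, and all 10 were found among the 54532 entries of the count table. RNAseq was performed on primary lung fibroblasts (pFBs) of female mice of a C57/black background, in culture and without treatment. The 4 WT libraries (WT1 to WT4) came from wild type mice. The 4 HOMO libraries (HOMO1 to HOMO4) came from mice homozygous for human *IGFBP5* (hIGFBP5), which was knocked in with CRISPR/Cas9 and is expressed in all tissues from the *Ef1a1* promoter, so its expression is not limited to fibroblasts. IGFBP5 is a secreted insulin-like growth factor binding protein that also associates with the extracellular matrix (ECM), and the comparison asks which integrin transcripts differ when pFBs carry the human protein. The age of the mice and how many mice or cultures stand behind the 8 libraries are not given in the sources used here, so p-values measure only the spread between libraries, which may be technical.

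The WT libraries held 17236521 to 29028769 counts and the HOMO libraries 19009027 to 31987790, so that 3 counts correspond to 0.0908 to 0.172 CPM, the count scaled by library size that is used below. Within 3 pairs (WT1 with WT2, HOMO1 with HOMO2, HOMO3 with HOMO4) the libraries were near-identical, with a coefficient of variation beyond counting error of 4.71 to 7.65%, against 30.05 to 56.5% in the other 9 pairs of the same genotype. Results are therefore also given with each near-identical pair summed, which leaves 3 WT and 2 HOMO units. WT3 and WT4 stood apart by their macrophage markers (10 genes, none at 3 counts or fewer in every library), whose summed level was 2208 CPM in WT3 and 1285 CPM in WT4, against 142 to 173 CPM in the other WT libraries and at most 211 CPM in HOMO. WT3 also held 7130 counts of mouse *Igfbp5*, against 112 to 225 in the other WT libraries and 24 to 57 in HOMO. The 10 fibroblast markers summed to 19040 to 25800 CPM in WT and 19257 to 32079 CPM in HOMO. All 10 were tested and 2 were called, both lower in HOMO, where 12.1% of all tested genes were called. These were *Pdgfrb* (log2 fold change −0.97, edgeR adjusted p = 0.0251) and *Vim* (−0.65, edgeR adjusted p = 0.0430). At an unadjusted edgeR p under 0.05, 3 of the 10 were lower and 2 higher in HOMO. The summed endothelial markers reached at most 8.13 CPM in any library. The 9 epithelial markers summed to 0.450 to 5.62 CPM in WT and 4.01 to 16.98 CPM in HOMO. Of these 9, 2 were tested and 1 was called, higher in HOMO. *Emcn*, *Cldn5*, *Tie1* and *Nkx2-1* were at 3 counts or fewer in each library. The 8 proliferation markers summed to 1009 to 1140 CPM in WT1 and WT2, 63.5 to 157 CPM in WT3 and WT4, 150 to 161 CPM in the first HOMO pair and 754 to 830 CPM in the second. In such bulk samples, fewer cells of a type and less RNA per cell cannot be told apart.

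An integrin is a membrane receptor made of an alpha and a beta subunit, and the pair decides which ligand is bound. In fibroblasts, *Itgb1* pairs with most alpha subunits: with *Itga1* and *Itga11* it binds collagens, with *Itga3* laminins, with *Itga5* and *Itga8* ligands carrying the RGD motif (fibronectin and nephronectin, respectively), and with *Itga4* fibronectin and VCAM1. *Itgav* pairs with *Itgb1*, *Itgb3* or *Itgb5* into RGD receptors that bind vitronectin and osteopontin and, in the lung, are known for releasing TGF-beta from its latent complex.

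Talin, kindlin and other proteins hold integrins to actin through the short tails of the beta subunits in the cytoplasm. The outer domains of the subunits differ widely, but the tails of alpha subunits share motifs, as do those of beta subunits. The codons of these motifs are shown because they are the stretch that members of a class share, for the alpha subunits those of the membrane-proximal motif known as GFFKR and its variants, and for the beta subunits those of the first NPXY motif. Each is a run of 30 coding bases from the GENCODE M21 transcripts (GRCm38, which is mm10), 5′ to 3′ on the coding strand, with the motif in capitals. In the genome each run crosses an exon junction after its first 3 bases, so the interval given includes an intron.
*Itga3*, chr11:95046564-95046923, minus strand: aagtgcGGCTTCTTCAAGCGAgcccgcact
*Itga5*, chr15:103345326-103345954, minus strand: aagctcGGCTTCTTCAAACGTtccctcccc
*Itgav*, chr2:83803000-83803266, plus strand: aggatgGGCTTTTTCAAACGTgtccgacca
*Itga1*, chr13:114960108-114965600, minus strand: aagattGGATTCTTCAAAAGGccactaaag
*Itga4*, chr2:79325692-79326546, plus strand: aaggctGGATTCTTTAAAAGAcagtacaaa
*Itga8*, chr2:12109175-12110977, minus strand: aagtgtGGATTCTTTGATAGAgcaagacct
*Itga11*, chr9:62782047-62782654, plus strand: aagctcGGTTTTTTTAAAAGTgccaagcgc
*Itgb1*, chr8:128726184-128732049, plus strand: acgggtgaaAATCCTATTTACaagagtgcc
*Itgb3*, chr11:104665630-104667106, plus strand: acagcaaacAACCCGCTGTATaaagaggcc
*Itgb5*, chr16:33947879-33948683, plus strand: atggcctcaAACCCCCTGTACagaaagccc

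Of the 15 motif bases of *Itga3*, 13 were the same in *Itga5*, 12 in *Itgav*, 11 in *Itga1* and *Itga4*, 10 in *Itga8* and 9 in *Itga11*. Of the 12 motif bases of *Itgb1*, 8 were the same in *Itgb5* and 7 in *Itgb3*. No motif had the same letters as another member's.

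*Itga3*, the alpha subunit of the laminin receptor alpha3beta1 (chr11:95044474-95076801, minus strand), was the member that was upregulated in HOMO pFBs. It was measured at 26.05, 27.4, 59.6 and 36.7 CPM in WT1 to WT4 and at 146, 151, 93.3 and 96.0 CPM in HOMO1 to HOMO4. Every HOMO library lay above every WT library, and the HOMO pairs stood apart from each other, HOMO1 and HOMO2 being the higher. Of the 8 mesothelial markers, 7 were tested and 1, *Wt1*, was called, higher in HOMO (1.13, 1.12, 8.67 and 2.13 CPM in WT and 36.8, 40.6, 28.99 and 26.8 CPM in HOMO, edgeR adjusted p = 0.0166). Their sum overlapped between genotypes, at 64.3, 58.5, 268 and 161 CPM in WT and 217, 213, 131 and 143 CPM in HOMO, and the part of these markers in the level of *Itga3* was not tested. The mean of *Itga3* rose 3.25-fold, a log2 fold change (log2FC) of 1.70 with a standard error of 0.30 (edgeR quasi-likelihood test, adjusted p = 0.0120). With the near-identical libraries summed the log2FC was 1.59 and the edgeR call was lost (adjusted p = 0.273), a setting in which no gene of the table was called.

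**Figure D1:**
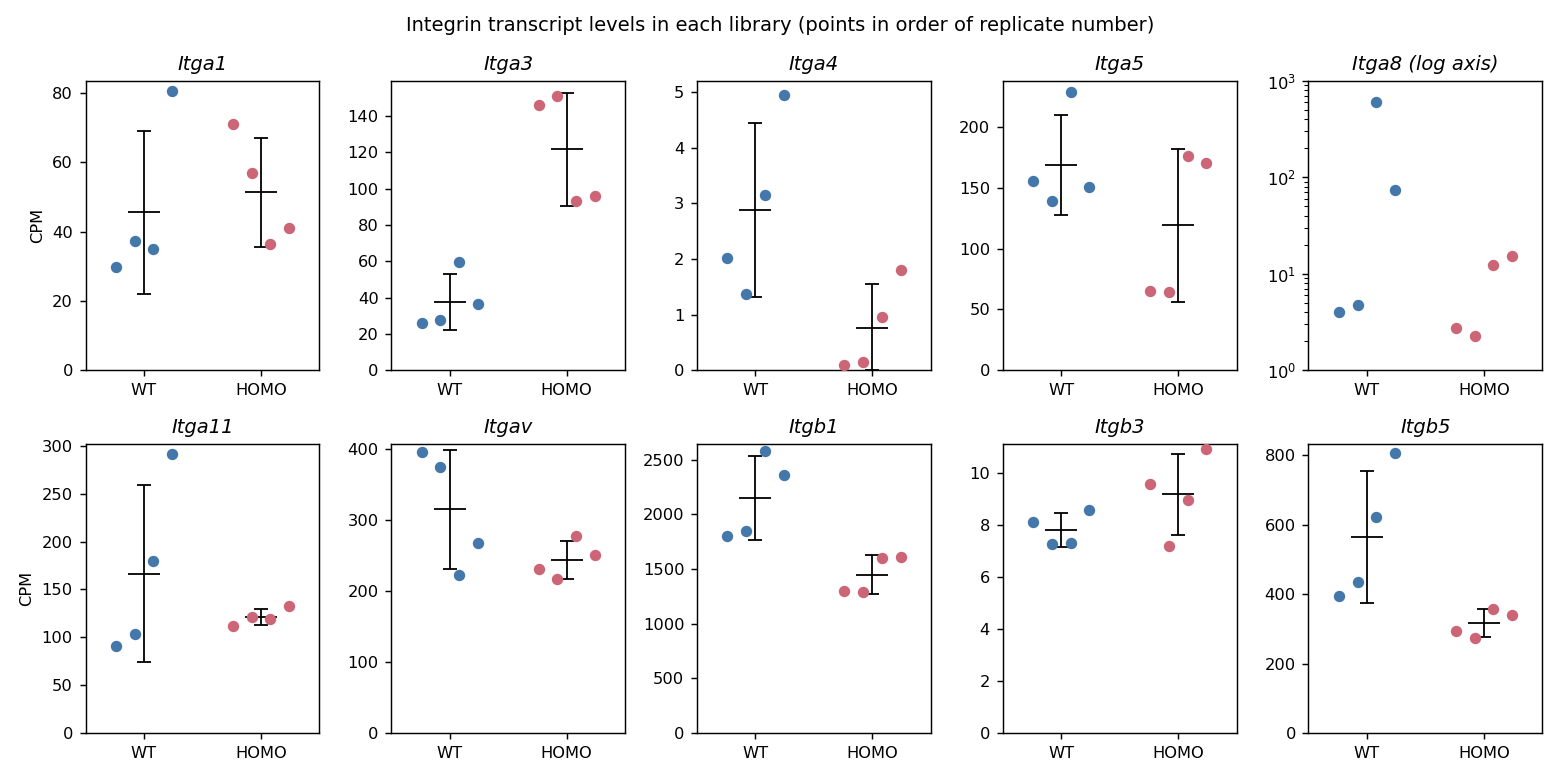
Level of each of the 10 integrin genes in CPM (vertical axes, each from 0 except that of *Itga8*, which is a log axis) in the 4 WT and 4 HOMO libraries; points are libraries in order of their number, and the line and bars are the mean and SD of 4 libraries (not drawn for *Itga8*, and for *Itga4* in HOMO the lower bar stops at 0). *Itga3* lies higher in every HOMO library, *Itgb1* and *Itgb5* lie lower in every HOMO library, and *Itga8* reaches 605 CPM in WT3 alone.

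A DEG is called here at the thresholds of the study, an adjusted p under 0.05 over all 14150 tested genes together with a log2FC beyond 0.6 in either direction. Of the 10 members, which were all tested, 1 was called higher in HOMO and 0 were called lower in HOMO, while 5.94% of all tested genes were called higher and 6.18% lower, 12.1% in all. At an unadjusted edgeR p under 0.05, 4 members were lower in HOMO and 1 was higher, where 2459 of the 14150 tested genes were lower and 2114 higher. DESeq2 called 3 members, *Itga3* higher and *Itga8* and *Itgb5* lower. It called 10.7% of the 27146 genes to which it gave an unadjusted p, a larger set than the 14150 tested by edgeR. limma-voom with sample weights called *Itga3* alone among the members, and 3573 of the 14150 tested genes. The log2FC was below 0 for 7 of the 10 members, with a median of −0.48, against −0.04 over all tested genes. The 2 genotypes did not overlap in 3 members (1 higher and 2 lower in HOMO), as was the case for 27.3% of all tested genes.

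Of the RGD receptor subunits among the members, none was called by edgeR over the 8 libraries. *Itga5*, the classical fibronectin receptor subunit (chr15:103344286-103366763, minus strand), was measured at 156, 139, 229 and 151 CPM in WT and at 65.3, 64.3, 176 and 171 CPM in HOMO. The HOMO1 and HOMO2 libraries were the lowest of all 8, whereas HOMO3 and HOMO4 lay within the WT range, so the genotypes overlapped. The log2FC was −0.50 with a standard error of 0.37, and the difference did not pass the test (edgeR adjusted p = 0.385).

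*Itgav*, the alpha subunit shared by the vitronectin and TGF-beta activating receptors (chr2:83724397-83806916, plus strand), was measured at 395, 374, 222 and 267 CPM in WT and at 231, 216, 277 and 250 CPM in HOMO. WT1 and WT2 were high, and WT3 and WT4 lay among the HOMO libraries. Its log2FC was −0.37 with a standard error of 0.20 (edgeR adjusted p = 0.244). By limma-voom it was −0.59 (adjusted p = 0.000901), short of the fold threshold of 0.6. Without WT3 and WT4, the libraries with the most macrophage transcripts, it was −0.66 and called (edgeR adjusted p = 0.00752). A predicted gene on the opposite strand, *Gm13684*, overlaps 5.90% of its exon bases. Whether the counting used strand is not given in the sources used here, so reads of the 2 genes cannot be told apart there.

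*Itga8*, the nephronectin receptor subunit of lung mesenchyme (chr2:12106632-12301922, minus strand), varied most. It was measured at 4.05, 4.76, 605 and 73.8 CPM in WT and at 2.76, 2.24, 12.4 and 15.2 CPM in HOMO. The 2 highest libraries were WT3 and WT4, and WT1 and WT2 lay below HOMO3 and HOMO4. The log2FC of −4.41 had a standard error of 1.61 and did not pass the test (edgeR adjusted p = 0.100), and it was −1.77 without WT3. Without WT3 and WT4 together it was 0.87, in the opposite direction. WT3 and WT4 were also the libraries with 2208 and 1285 CPM of macrophage markers, and the alveolar fibroblast markers summed to 867 and 987 CPM in WT1 and WT2, 1648 and 1642 CPM in WT3 and WT4, and 457 to 508 CPM in HOMO (2 of these 12 markers, *Fgfr4* and *Slc7a10*, were at 3 counts or fewer in each library). The alveolar markers did not move together: *Gyg*, *Limch1* and *Fgf10* were higher in WT3 and WT4 than in WT1 and WT2, whereas *Tcf21* was at 48.1, 57.1, 5.39 and 47.7 CPM in WT, lowest in WT3. The 10 smooth muscle and pericyte markers summed to 882, 828, 2732 and 930 CPM in WT1 to WT4. In HOMO1 to HOMO4 they summed to 263, 263, 1475 and 1455 CPM. Of these markers, 8 were tested and 1, *Rgs5*, was called, lower in HOMO and highest in WT4. *Myh11* was at 2.42, 1.93, 53.9 and 24.8 CPM in WT and at 0.401, 0.514, 16.0 and 17.2 CPM in HOMO. The part of any of these lists in the level of *Itga8* was not tested.

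The collagen receptor subunits among the members, *Itga1* and *Itga11*, showed no difference that passed the test. *Itga1* (chr13:114953096-115101964, minus strand) was measured at 29.7, 37.2, 35.0 and 80.6 CPM in WT and at 71.1, 56.9, 36.6 and 41.1 CPM in HOMO, and its log2FC was 0.17 with a standard error of 0.35 (edgeR adjusted p = 0.770). *Itga11*, the receptor subunit for fibrillar collagen that is most characteristic of fibroblasts (chr9:62677826-62783982, plus strand), was measured at 91.0, 104, 180 and 291 CPM in WT and at 112, 121, 119 and 132 CPM in HOMO. Its log2FC was −0.46 with a standard error of 0.34 (edgeR adjusted p = 0.384), and it was 0.31 without WT3 and WT4. WT4 was the highest library for both genes. The HOMO libraries of *Itga11* lay close together, 1.18-fold apart at most, whereas the WT libraries lay up to 3.20-fold apart.

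*Itga4*, the subunit that binds VCAM1 and fibronectin (chr2:79255426-79333123, plus strand), had the lowest level per kilobase of the members. It was counted 36, 32, 55 and 128 times in WT and 2, 5, 19 and 36 times in HOMO, which is 1.37 to 4.95 CPM and 0.0892 to 1.80 CPM. HOMO4 lay above WT2, so the genotypes overlapped, and the log2FC of −1.96 (standard error 0.86) did not pass the test (edgeR adjusted p = 0.153). *Cerkl*, on the opposite strand, overlaps 8.04% of its exon bases.

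*Itgb1*, the beta subunit common to most receptors above (chr8:128685654-128733200, plus strand), was the most abundant member. It was measured at 1798, 1845, 2579 and 2357 CPM in WT and at 1296, 1290, 1595 and 1611 CPM in HOMO. Every HOMO library lay below every WT library. The log2FC of −0.57 (standard error 0.19) had an unadjusted p of 0.0148 and an edgeR adjusted p of 0.0778, and so did not pass the test. The adjusted p was 0.0256 by DESeq2 (−0.57) and 0.0229 by limma-voom (−0.30), where the fold threshold of 0.6 was not met. The median of its chromosome lay in the opposite direction: the median log2FC of the 790 genes of chromosome 8 was 0.37, and relative to that median *Itgb1* was at −0.94. Each gene of the chromosome was also taken relative to its own mean over the 8 libraries, on the log2 scale. The median of these deviations lay 0.142 to 0.218 below 0 in each WT library and 0.160 to 0.257 above 0 in each HOMO library. The part of this shift in the level of *Itgb1* was not tested.

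**Figure D2:**
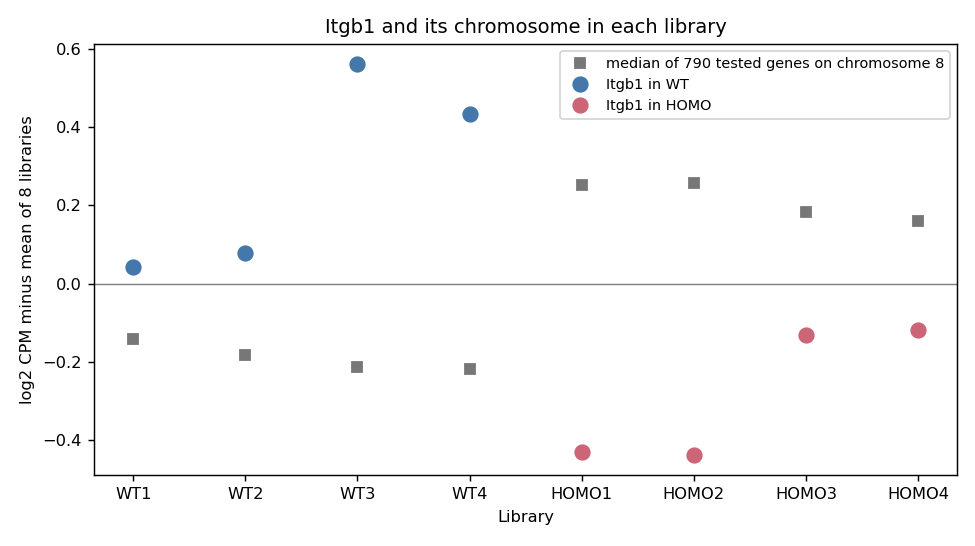
Level of *Itgb1* (circles, blue in WT and red in HOMO) and median over the 790 tested genes of chromosome 8 (grey squares), by library (horizontal axis). Every gene was taken as log2 CPM minus its own mean over the 8 libraries (vertical axis) before the median. *Itgb1* lies above 0 in the WT libraries and below 0 in the HOMO libraries, while the chromosome's median lies below 0 in WT and at 0.160 to 0.257 in HOMO.

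*Itgb5*, which pairs with *Itgav* into a vitronectin receptor (chr16:33829665-33949338, plus strand), was measured at 393, 434, 623 and 807 CPM in WT and at 294, 273, 358 and 341 CPM in HOMO. Every HOMO library lay below every WT library, and WT3 and WT4 were the highest. The mean was 1.78-fold higher in WT, with a log2FC of −0.83 and a standard error of 0.24, and edgeR did not call it (adjusted p = 0.0533), although DESeq2 did (−0.84, adjusted p = 0.0176). Without WT1, a near-identical library of WT2, edgeR called it too (−0.97, adjusted p = 0.0394). The log2FC was −0.39 without WT3 and WT4 (edgeR adjusted p = 0.0596) and −0.40 by limma-voom (adjusted p = 0.0151), both short of 0.6.

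*Itgb3*, the other beta partner of *Itgav* among the members (chr11:104608000-104670476, plus strand), was the steadiest. It was measured at 8.10, 7.25, 7.29 and 8.56 CPM in WT and at 9.59, 7.20, 8.97 and 10.9 CPM in HOMO. The genotypes overlapped, and the log2FC was 0.23 with a standard error of 0.19 (edgeR adjusted p = 0.441).

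Levels of different genes were compared per kilobase of exon (RPKM, CPM divided by the length of all annotated exons of a gene). In WT, *Itgb1* led at 526 ± 94.3 RPKM (SD, n = 4), followed by *Itgb5* at 159 ± 53.5 RPKM. *Itga5* (34.2 ± 8.29 RPKM), *Itga11* (32.5 ± 17.95 RPKM), *Itgav* (29.3 ± 7.77 RPKM) and *Itga8* (23.3 ± 39.5 RPKM) came next, and neighbours in this order did not differ beyond their spread. *Itga3* ranked seventh among the WT levels at 6.55 ± 2.71 RPKM, with the range of *Itga8* including its own. *Itga1* (2.45 ± 1.26 RPKM), *Itgb3* (1.32 ± 0.108 RPKM) and *Itga4* (0.206 ± 0.112 RPKM) were lowest, and the means of *Itga1* and *Itgb3* differed by less than their SDs together.

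In HOMO, *Itgb1* (355 ± 43.9 RPKM, SD, n = 4) and *Itgb5* (89.1 ± 11.2 RPKM) again led. *Itga5* (24.2 ± 12.7 RPKM), *Itga11* (23.6 ± 1.63 RPKM), *Itgav* (22.7 ± 2.46 RPKM) and *Itga3* (21.3 ± 5.45 RPKM) followed with overlapping ranges, so that in HOMO *Itga3* was among the 4 leading alpha subunits. *Itga1* was at 2.77 ± 0.847 RPKM, *Itgb3* at 1.55 ± 0.262 RPKM, *Itga8* at 1.11 ± 0.900 RPKM, which overlapped *Itgb3*, and *Itga4* at 0.0538 ± 0.0577 RPKM.

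The make-up of the alpha subunit transcripts shows the same values as shares of a whole. *Itga3* made up 4.91, 5.29, 5.30 and 4.81% of the summed RPKM of the 7 alpha genes in WT1 to WT4 and 29.6, 30.5, 15.6 and 16.0% in HOMO1 to HOMO4. The WT shares were close to each other, but the levels of *Itga3* were not, at 59.6 CPM in WT3 against 26.05 CPM in WT1. The share in WT3 was taken of a larger sum, of which *Itga8* made up 41.7%. *Itga5* made up 22.9 to 34.0% in WT, 15.3 and 15.1% in HOMO1 and HOMO2, and 34.1 and 33.0% in HOMO3 and HOMO4. *Itgav* made up 39.6 and 38.4% in WT1 and WT2, 10.5 and 18.7% in WT3 and WT4, and 22.2 to 24.9% in HOMO. *Itga8* made up 41.7% in WT3 and 7.51% in WT4, against 0.351 to 1.97% in the other 6 libraries, and *Itga11* reached 42.6% in WT4.

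**Figure D3:**
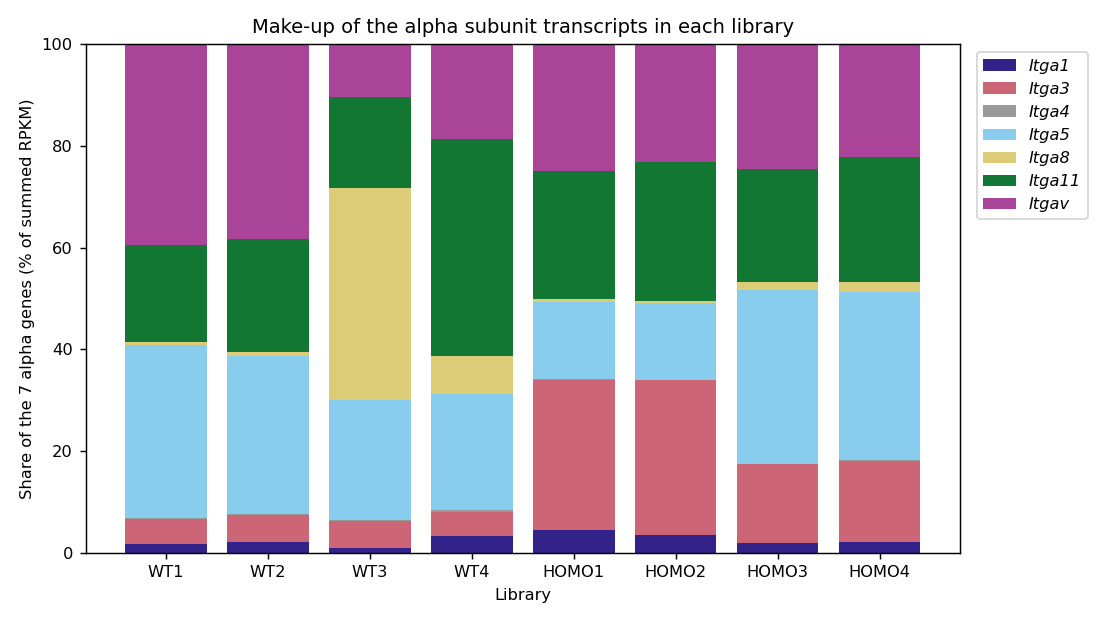
Share of each of the 7 alpha subunit genes in their summed RPKM (vertical axis, %), stacked for each library (horizontal axis). The *Itga3* share is 4.81 to 5.30% in the WT libraries and 15.6 to 30.5% in the HOMO libraries, and the *Itga8* share of 41.7% sets WT3 apart.

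The ratio of *Itga3* to *Itga5* in RPKM, laminin against fibronectin receptor, was 0.145 to 0.224 in WT, 1.93 and 2.02 in HOMO1 and HOMO2, and 0.457 and 0.486 in HOMO3 and HOMO4. Set against their common partner, the 7 alpha genes summed to 20.1 to 31.2% of the RPKM of *Itgb1* in WT and to 26.6 to 27.4% in HOMO. *Itga3* alone was 1.04 to 1.65% of *Itgb1* in WT and 4.18 to 8.35% in HOMO. *Itgb5* was 24.3 to 27.7% of *Itgb1* in 7 libraries of both genotypes and 39.3% in WT4. *Itgb5* exceeded *Itgb3* by 80.7 to 157 times in WT and by 51.0 to 66.3 times in HOMO. These ratios are given as descriptions, without a test.

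**Figure D4:**
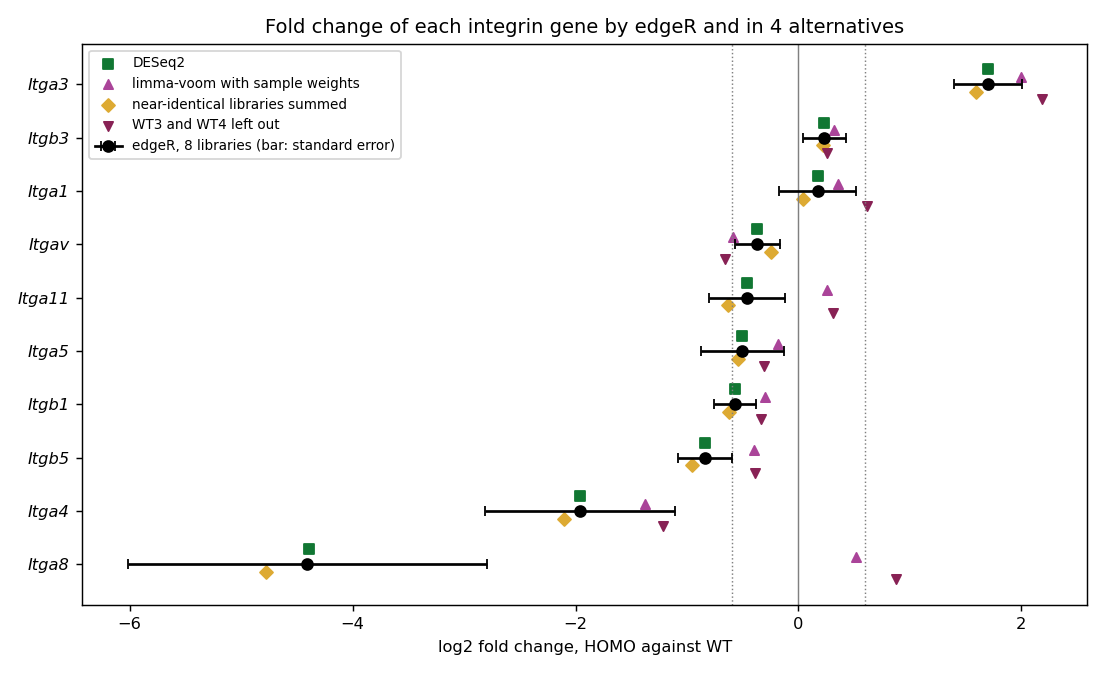
log2FC of HOMO against WT (horizontal axis) for each member by edgeR over 8 libraries (black, with standard error) and in 4 other analyses (coloured symbols); dotted lines mark 0.6 in either direction. *Itga3* stays between 1.59 and 2.18 in the analyses drawn, whereas *Itga8* moves from −4.41 to 0.87 once WT3 and WT4 are left out.

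The genes whose pattern over the 8 libraries was most like that of *Itga3*, by the root mean square difference of mean-centred log2 CPM, were *Khk* (0.0638), *Calhm4* (0.153), *Ppp4r4* (0.187) and *Ezr* (0.193). *Khk*, which encodes ketohexokinase, was measured at 5.51, 5.58, 11.99 and 7.90 CPM in WT and at 30.1, 28.8, 17.99 and 18.5 CPM in HOMO. *Ezr*, which encodes ezrin, a linker of membrane and actin, was the most abundant of the 4, at 77.8 to 150 CPM in WT and 272 to 453 CPM in HOMO. *Calhm4* was at most at 1.45 CPM in any library. For *Itga8*, the member with the largest SD of log2 CPM over the libraries (2.74), the nearest genes were *Clec4n* (0.705), *Atp6v0d2* (0.766), *C1qa* (0.781) and *Cd300c2* (0.798). These differences are larger than those of the *Itga3* neighbours. *C1qa*, a complement gene made by macrophages, was measured at 3.54, 2.70, 135 and 69.7 CPM in WT and at 0.666 to 3.65 CPM in HOMO, so that it shared with *Itga8* the high values in WT3 and WT4.

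Of the other 17 integrin subunit genes, 12 were tested and 2 were called. *Itga2b*, the alpha subunit of the platelet fibrinogen receptor and a partner of *Itgb3*, rose from 10.2, 9.99, 4.42 and 4.92 CPM in WT to 16.0, 16.2, 19.9 and 17.5 CPM in HOMO (log2FC 1.24, standard error 0.31, edgeR adjusted p = 0.0344). *Itga2*, a collagen receptor subunit that pairs with *Itgb1*, fell from 7.43, 6.35, 0.689 and 4.61 CPM to 0.178, 0.0303, 0.558 and 0.551 CPM (log2FC −3.89, standard error 0.91, edgeR adjusted p = 0.0290). For both, the genotypes did not overlap, although WT3 lay close to the HOMO libraries for *Itga2*. Both calls were lost when any 1 HOMO library was left out, that of *Itga2* also without WT1 or WT2, and that of *Itga2b* without WT4.

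Of the remaining partners of the beta1 and alphaV classes, those tested by edgeR and described here were not called. *Itgb6*, a partner of *Itgav* named here after its values were seen, was too low for that test, with 15, 17, 1 and 1 counts in WT and 0, 0, 0 and 1 in HOMO (exact permutation test on CPM over the 70 assignments, two-sided, p = 0.0571, where the smallest possible is 0.0286). DESeq2 called *Itgb6* and *Itga7* lower in HOMO. *Itga7*, a laminin receptor subunit of muscle, was at 29.4 and 23.4 CPM in WT3 and WT4 and at 2.42 to 4.51 CPM in the other 6 libraries (log2FC −2.19, adjusted p = 0.0831). *Itga6*, another laminin receptor subunit, was at 1.84 to 5.92 CPM in WT and 1.15 to 4.21 CPM in HOMO (log2FC −0.66, edgeR adjusted p = 0.389). *Itga9*, which binds tenascin C, was at 4.16 to 20.2 CPM in WT and 12.9 to 18.9 CPM in HOMO (log2FC 0.69, edgeR adjusted p = 0.361). *Itgb8*, a partner of *Itgav* in TGF-beta activation, did not overlap between genotypes, at 0.619 to 0.861 CPM in WT and 0.952 to 2.41 CPM in HOMO (log2FC 1.12, edgeR adjusted p = 0.0775). Some leukocyte subunits, *Itgam*, *Itgax* and *Itgb2*, were highest in WT3 (13.7, 22.6 and 47.7 CPM) and next highest in WT4, as the summed macrophage markers were. In the other libraries *Itgb2* departed from these markers. It was at 17.3 to 23.5 CPM in HOMO and at most at 13.2 CPM in WT1 and WT2, whereas the summed markers were lower in HOMO1 and HOMO2 than in WT1 and WT2. Both limma-voom and edgeR without WT3 and WT4 called *Itgb2* higher in HOMO. *Itgam*, *Itgax* and *Itgb2* were named here after their values were seen, and other leukocyte subunits did not share the pattern. *Itgal* was at 0.619, 0.214, 0.574 and 1.35 CPM in WT and 0.0892, 0.0303, 1.17 and 1.25 CPM in HOMO. *Itgad*, *Itgae* and *Itgb7*, too low for the edgeR test, had 0 counts in WT3. Of the exon bases of *Itgam*, 68.7% are overlapped by the predicted gene *Gm49368*. The median log2FC of the 12 tested genes was −0.30.

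Among genes of proteins that these integrins bind, 29 of 33 were tested and edgeR called 5, each lower in HOMO (6.18% of all tested genes were), with a median log2FC of −0.56 over the list. At an unadjusted edgeR p under 0.05, 12 ligand genes were lower and 5 higher in HOMO, where 2459 of the 14150 tested genes were lower and 2114 higher. DESeq2 called 8 lower and 2 higher, and limma-voom called 8 lower and 10 higher. Over all genes, DESeq2 called 1592 lower and 1321 higher, and limma-voom 1564 lower and 2009 higher. *Thbs1*, encoding thrombospondin 1, fell 7.11-fold, from 10550 to 14757 CPM in WT to 844 to 2607 CPM in HOMO (log2FC −2.83, standard error 0.43, edgeR adjusted p = 0.00707). *Npnt*, encoding nephronectin, the main ligand of *Itga8*, fell from 279, 251, 63.8 and 74.6 CPM to 27.3, 29.7, 53.0 and 50.5 CPM (log2FC −2.06, standard error 0.52, edgeR adjusted p = 0.0364). Its high libraries were WT1 and WT2, the WT libraries in which *Itga8* was low, and its call was lost without WT1 or WT2 and without any HOMO library. *Npnt* is itself among the 12 alveolar fibroblast markers, of which 7 were tested.

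Of the other called ligands, *Tnc* and *Fbn1* fell with no overlap between genotypes. *Tnc*, encoding tenascin C, was at 1155 to 2388 CPM in WT and 638 to 760 CPM in HOMO (log2FC −1.14, edgeR adjusted p = 0.0211). *Fbn1*, encoding the RGD protein fibrillin 1, was at 427 to 735 CPM and 238 to 348 CPM (log2FC −1.04, edgeR adjusted p = 0.0165), with 20.1% of its exon bases overlapped by *Gm9913* on the opposite strand. The calls of *Tnc* and *Fbn1* were lost without HOMO1 or HOMO2, and that of *Tnc* also without HOMO3 or HOMO4.

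Other ligands had no difference that edgeR called. *Fn1*, encoding fibronectin, was at 6925, 7758, 2422 and 10677 CPM in WT and 5255 to 7698 CPM in HOMO (log2FC −0.09, edgeR adjusted p = 0.907). *Spp1*, encoding osteopontin, was highest in WT3 and WT4, at 1374 and 587 CPM, against 111 and 113 CPM in WT1 and WT2 and 11.4 to 124 CPM in HOMO (log2FC −3.04, edgeR adjusted p = 0.0960, with 18.75% of its exon bases overlapped by *Gm42793*). *Vcam1*, the counter-receptor of *Itga4*, was at 186 to 776 CPM in WT and 243 to 586 CPM in HOMO (log2FC −0.48, edgeR adjusted p = 0.512). *Col1a1*, the collagen chain bound by *Itga1* and *Itga11*, did not overlap, at 4390 to 5667 CPM in WT and 5743 to 11713 CPM in HOMO (log2FC 0.82, edgeR adjusted p = 0.0985). *Vtn*, encoding vitronectin, was at 3 counts or fewer in each library.

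Of 29 genes for proteins that act on integrin tails or associate with integrins in the membrane, 27 were tested and edgeR called 6, each lower in HOMO (again against 6.18% of all tested genes), with a median log2FC of −0.30. At an unadjusted edgeR p under 0.05, 11 were lower and 2 higher, where 2459 of the 14150 tested genes were lower and 2114 higher. DESeq2 and limma-voom each called 8 lower and 1 higher. Over all genes, DESeq2 called 1592 lower and 1321 higher, and limma-voom 1564 lower and 2009 higher. *Cd151*, the tetraspanin best known for its complex with the *Itga3* product, fell from 213, 210, 226 and 281 CPM in WT to 86.0, 85.9, 99.9 and 101 CPM in HOMO. That is a 2.50-fold fall with no overlap (log2FC −1.32, standard error 0.14, edgeR adjusted p = 0.00202), in the same libraries in which *Itga3* was higher. The tetraspanins *Cd81* (log2FC −1.27, edgeR adjusted p = 0.00944) and *Cd82* (−0.99, adjusted p = 0.0364) fell as well, with *Cd82* in WT4 at 26.6 CPM, below HOMO3 at 26.8 CPM.

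*Tns3* and *Tns1*, encoding tensins, which join beta tails to actin, were both called lower. *Tns3* was at 704 to 1232 CPM in WT and 296 to 374 CPM in HOMO (log2FC −1.50, standard error 0.19, edgeR adjusted p = 0.00408). *Tns1* was at 429 CPM in WT3, within the HOMO range of 410 to 449 CPM, and at 1040 to 1146 CPM in the other WT libraries (log2FC −1.07, edgeR adjusted p = 0.0414). *Cib1*, encoding a calcium-binding protein of alpha tails, fell from 26.2 to 44.4 CPM in WT to 14.1 to 17.9 CPM in HOMO (log2FC −1.06, edgeR adjusted p = 0.0134). The main activators, talin 1 and kindlin 2, were not called: *Tln1* was at 430 to 707 CPM in WT and 794 to 866 CPM in HOMO (log2FC 0.44, adjusted p = 0.123), and *Fermt2* at 122 to 191 CPM and 127 to 160 CPM (log2FC −0.02, edgeR adjusted p = 0.948). Both were named after their values were seen. Of the 6 calls, those of *Cd151*, *Cd81* and *Tns3* held without any 1 library, that of *Cib1* was lost without HOMO1 or HOMO2, and those of *Cd82* and *Tns1* without any 1 HOMO library and without WT1 or WT2 (*Tns1* also without WT4).

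**Figure D5:**
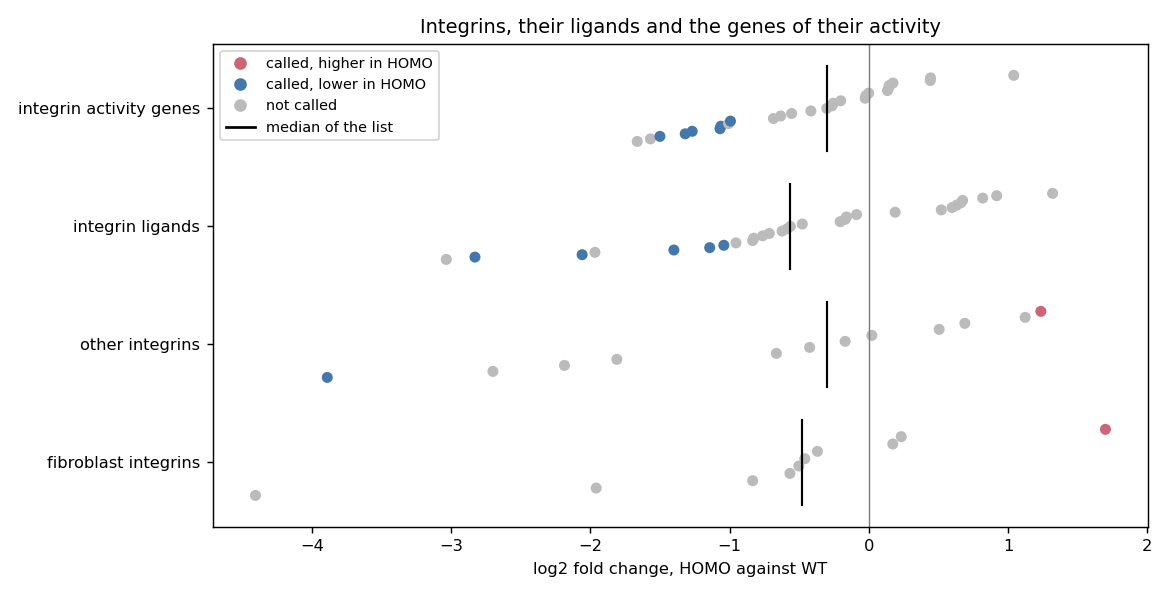
log2FC of HOMO against WT by edgeR (horizontal axis) for each tested gene of 4 lists (vertical axis, genes of a list drawn in order of log2FC), red and blue where called higher or lower in HOMO, with a black bar at each list's median. The called ligands and integrin activity genes all lie below 0, and the medians are −0.48 for the members, −0.30 for the other integrins, −0.56 for the ligands and −0.30 for the activity genes.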

How the data were processed

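Lung fibroblast RNA had been made into libraries with a NEBNext Ultra kit. The deposited table holds raw counts per gene symbol that the authors made with STAR and featureCounts on mm10 (versions not given in the sources used here), 8 columns matched by title, and DESeq2 is also named in the submitters' notes. The file's name says that an outlier was left out, and what was left out is not stated. Counts were tested with edgeR 4.0.16 in R 4.3.3: filterByExpr, TMM, quasi-likelihood F test (two-sided), Benjamini-Hochberg over 14150 genes. CPM use TMM-scaled totals, and log2 CPM a prior count of 2. Of 54532 symbols, 53669 matched GENCODE M21, which gave coordinates, lengths and sequences. DESeq2 1.42.0 and limma-voom (limma 3.58.1) served as alternatives, beside RLE and upper-quartile scaling, no filter, a CPM above 1 in 4 libraries, a replicate block, summed near-identical libraries and each library left out. Calls were also read without the fold threshold, and the log2FC of members relative to the median of their chromosome. The fits were tested on simulated data first. Tables and figures were made in Python 3.11.15 with pandas 2.3.3 and matplotlib 3.10.9. Members, lists and thresholds were chosen with earlier results of these data known. Named were all members, each called gene of the other lists, fixed partners and ligands, and the 4 genes most like each called member and the most variable member. The human transgene was not analysed here, and 1 called gene of the ligand list, though counted, is not reported here.

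Intervals and floors of 3 counts cover counting error only.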

Additional observations from a re-analysis of the deposited data

Results flagged for a closer look

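No member had a library far from the others of its genotype by Dixon's ratio on log2 CPM. *Itga8* was not flagged although WT3 stood at 9.24 log2 CPM, with WT4 at 6.21 and WT1 and WT2 at 2.05 and 2.28. HOMO1 with HOMO2 and HOMO3 with HOMO4 were near-identical, so this ratio hardly finds a lone library in HOMO. A group that was not flagged is therefore not evidence that its libraries agree. Among 46 genes named, checked in both genotypes (92 groups of 4 libraries), 4 had a library far from the others. The rate by chance, about 1 in 20 groups, holds for independent libraries and was not worked out for near-identical ones. *Vcam1* was lowest in WT3, at 7.54 log2 CPM where the remaining WT libraries had 9.27 to 9.60. *Tns1* was also lowest in WT3, at 8.75 log2 CPM against 10.02 to 10.16. *Tcf21* was lowest in WT3 as well, at 2.46 log2 CPM against 5.58 to 5.84. *Itgb6* was highest in HOMO4, at −2.84 log2 CPM against −3.49, which is 1 count against 0 in the other HOMO libraries.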

How the results depend on the processing

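The member called, *Itga3*, kept its direction in 19 of 19 alternatives (log2FC 1.56 to 2.18, edgeR, DESeq2 or limma adjusted p 1.07e-05 to 0.273). Of these, 1 only dropped the fold threshold, so its log2FC of 1.70 could not change. Another only set *Itga3* relative to the median of its chromosome (1.76). The call was lost with a replicate block (1.75, edgeR adjusted p = 0.0501) and with the near-identical libraries summed (1.59, adjusted p = 0.273). The number of members called was 3 by DESeq2, 0 with the block (5 at an unadjusted p under 0.05), 0 when summed (2 unadjusted), 2 without WT3 and WT4, and 1 to 2 with single libraries left out (2 without WT1, where *Itgb5* was added). Leaving out WT3 and WT4 together was chosen after seeing the data. Other integrins called numbered 4 by DESeq2, 6 by limma-voom, 1 with a CPM filter, 1 with the block, 0 when summed (3 unadjusted) and 0 to 2 with single libraries left out. Ligands called numbered 10 by DESeq2, 18 by limma-voom, 3 with the block, 0 when summed (5 unadjusted) and 1 to 9 with single libraries left out (9 without WT3, 1 without HOMO1 or HOMO2). Activity genes called numbered 0 when summed (4 unadjusted) and 3 to 9 with single libraries left out (9 without WT3). Over all genes, 1716 were called, 2913 by DESeq2, 3573 by limma-voom, 947 with the block and 0 when summed. The replicate numbers did not pair the samples: correlations of same-numbered deviations were −0.124 to 0.014, and 0 of 8 libraries correlated best with their own number. The direction turned for *Itga1* (−0.020 without HOMO1, up to 0.60 with other single libraries left out), *Itga8* (0.52 by limma-voom, 0.87 without WT3 and WT4) and *Itga11* (0.25 and 0.31), and *Itga8* ranged from −4.87 to −1.77 with single libraries left out. Causes were not tested. With 3 WT and 2 HOMO units no gene was called, so that setting could not separate members from the rest.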
